A study of Mus musculus with 2 samples.

Results

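The replication-dependent histone genes encode the bulk of the H1, H2A, H2B, H3 and H4 proteins that package newly copied DNA. Here they were taken as the protein-coding RefSeq genes whose symbol or synonym is H1f1 to H1f5 or starts with H2ac, H2bc, H3c or H4c and a number. The rule gave 63 members among 21531 protein-coding genes with a known strand. Of these members, 62 matched by symbol, and H4f16 matched only because RefSeq lists the names of other H4 genes among its synonyms. CHD2, a chromodomain helicase that remodels chromatin, had been mapped by ChIP-seq in ES-E14, a mouse embryonic stem cell line of strain 129/Ola from a male embryo. The labels give 1 group of 2 biological replicates, with no treatment and no genotype to compare, and do not say whether the replicates came from separate cultures. The main list is called optimal. Each replicate's relaxed list held 300000 peaks, of which as many as the optimal list holds, those with the highest signal, were used where a replicate was read alone. Signal is the peak caller's own value, is compared here only within 1 list, and comes without a read depth, so that no precision from depth can be given.

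Replication-dependent histone genes are short, mostly lack introns and lie in clusters in which H2A and H2B genes often stand head to head and share the DNA between their starts. They are transcribed mainly in S phase, and their messenger RNAs end in a stem-loop instead of a poly(A) tail. In embryonic stem cells, which divide fast, a large share of the cycle is S phase. Their promoters are known for CCAAT boxes, bound by NFY, for TATA boxes and, in H2B genes, for an octamer bound by Oct factors.

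The DNA between the starts of 4 H2A and H2B pairs is shown first, because the strongest histone peak and the pairs without any peak lie in such stretches. All sequences are RefSeq's for GRCm38.p6, written 5′ to 3′ on the plus strand for pairs. Capitals mark the octamer ATTTGCAT, the CCAAT box CCAAT and the TATA box TATAAA on either strand. None of these motifs holds another, and a match describes letters and not a bound site. The H2bc7 and H2ac7 starts enclose chr13:23574208-23574380, with the optimal summit at base 124. The H2ac15 and H2bc15 starts enclose chr13:21753913-21754075, with the summit at base 27. The H2ac8 and H2bc8 starts enclose chr13:23571221-23571399, with the summit at base 20. The H2ac12 and H2bc12 starts enclose chr13:22035644-22035820, and no list used here held a peak within 1 kb of either start.
H2bc7/H2ac7: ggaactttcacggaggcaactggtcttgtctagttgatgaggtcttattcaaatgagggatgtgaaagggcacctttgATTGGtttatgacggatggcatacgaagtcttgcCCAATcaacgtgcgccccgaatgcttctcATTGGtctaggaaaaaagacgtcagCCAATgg
H2ac15/H2bc15: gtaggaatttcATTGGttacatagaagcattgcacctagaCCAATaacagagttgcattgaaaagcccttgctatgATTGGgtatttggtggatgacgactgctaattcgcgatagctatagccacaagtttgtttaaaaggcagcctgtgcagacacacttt
H2ac8/H2bc8: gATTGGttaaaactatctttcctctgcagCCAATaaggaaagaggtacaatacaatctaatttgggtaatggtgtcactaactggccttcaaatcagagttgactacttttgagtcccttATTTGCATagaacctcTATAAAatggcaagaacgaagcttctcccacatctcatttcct
H2ac12/H2bc12: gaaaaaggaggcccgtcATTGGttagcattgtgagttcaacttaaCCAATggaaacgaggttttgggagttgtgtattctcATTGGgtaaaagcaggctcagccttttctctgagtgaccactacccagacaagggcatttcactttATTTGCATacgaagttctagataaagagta

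The 150 bases before the start of 4 members that stand apart from such pairs are shown as single examples of the other classes and of a lone H2B gene. The H2bc14 stretch at chr13:21721894-21722043 holds 3 CCAAT boxes and an octamer. The H3c8 stretch at chr13:23535268-23535417 holds 1 CCAAT box. The H1f5 stretch at chr13:21780626-21780775, given on its own minus strand, holds 2 CCAAT boxes, a TATA box and 1 GC box (GGGCGG, either strand, not capitalised). The H4c2 stretch at chr13:23756787-23756936 holds none of the 3 capitalised motifs, but 2 GC boxes. In the optimal list the first 3 of these genes had a summit inside the printed stretch or just before it, whereas the summit at H4c2 lay past the other end of the gene.
H2bc14: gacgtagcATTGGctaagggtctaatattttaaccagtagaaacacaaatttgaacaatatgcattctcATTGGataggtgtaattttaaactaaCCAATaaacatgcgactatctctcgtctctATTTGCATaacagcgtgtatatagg
H3c8: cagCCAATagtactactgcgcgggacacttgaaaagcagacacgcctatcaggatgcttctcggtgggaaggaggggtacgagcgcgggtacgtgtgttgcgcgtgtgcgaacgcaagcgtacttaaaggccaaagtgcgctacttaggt
H1f5: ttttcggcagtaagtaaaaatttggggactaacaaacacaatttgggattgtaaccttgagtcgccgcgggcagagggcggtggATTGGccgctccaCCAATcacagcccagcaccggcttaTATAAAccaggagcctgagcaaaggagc
H4c2: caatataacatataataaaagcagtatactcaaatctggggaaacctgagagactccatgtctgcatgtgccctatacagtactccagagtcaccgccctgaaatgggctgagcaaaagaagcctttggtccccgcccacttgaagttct

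CHD2 peaks lay at 28 of the 63 members, which is 44.4% (exact Clopper-Pearson 95% interval 31.9 to 57.5, counting error only), against 15.4% of all protein-coding genes. The interval treats members as independent draws, which neighbours that share peaks are not. A promoter peak here has its summit within 1 kb of a RefSeq 5′ end. The list of replicate 1 alone held one at 27 members (42.9%, against 15.9% of all protein-coding genes). The list of replicate 2 alone held one at 35 members (55.6%, against 15.5%). Both replicates' lists held one at 23 members, whereas 11.5% of all protein-coding genes had a peak in both. Another 4 members had a peak in the list of replicate 1 only and 12 in that of replicate 2 only. Because neighbouring histone genes share peaks, the 28 members rested on 25 unique peaks, of which 14 counted for 1 member and 11 for 2. All 25 lay nearer to a member's 5′ end than to that of any other protein-coding gene.

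H2B genes, whose proteins pair with H2A in the nucleosome, had the highest share of members with a peak in the optimal list and H4 genes the lowest, an order that the replicates read alone did not keep for H1. A peak lay at 10 of 16 H2B members (62.5%, exact interval 35.4 to 84.8) and at 8 of 17 H2A members (47.1%, 23 to 72.2). It lay at 5 of 12 H3 members (41.7%, 15.2 to 72.3) and at 3 of 13 H4 members (23.1%, 5.04 to 53.8). It lay at 2 of 5 members of H1, the linker histone (40.0%, 5.27 to 85.3). These intervals also treat members as independent. They overlap, and no test between classes was made, since neighbouring members share peaks. In replicate 1 alone, H2B had 9, H2A 7, H3 6, H4 5 and H1 0 members with a peak. In replicate 2 alone, H2B had 11, H2A 8, H3 7, H4 5 and H1 4. H1 thus had the lowest share in replicate 1 and the highest in replicate 2, and no H1 member had a promoter peak in both. Part of this contrast lies at the 1 kb limit. The replicate 2 summit at H1f3 was 997 bp from the start, and the overlapping replicate 1 peak (24.7, rank 2094) had its summit past the limit.

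**Figure D1:**
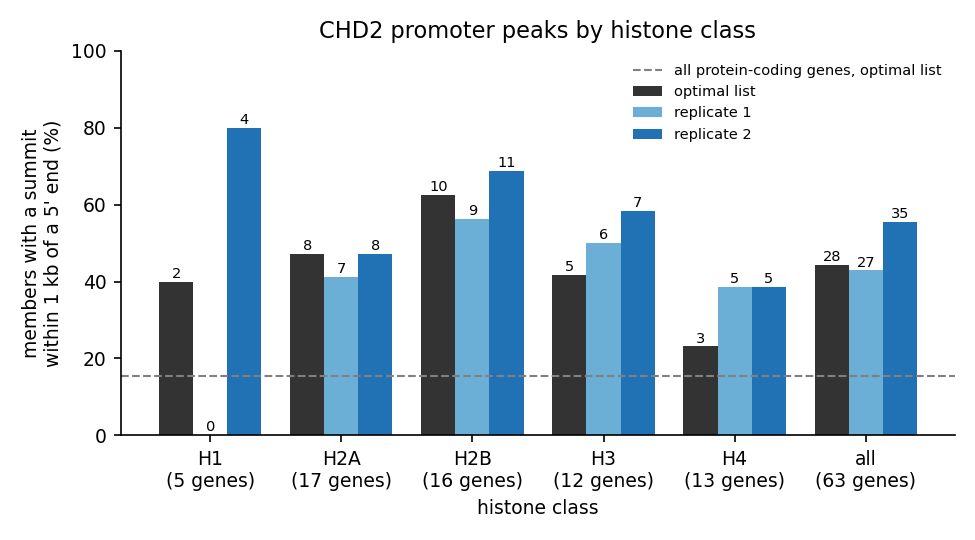
Share of members with a CHD2 summit within 1 kb of a 5′ end (%, vertical axis) for each histone class and for all 63 members, in the optimal list and in each replicate's strongest peaks. Numbers over the bars count members, and the dashed line marks the 15.4% of all protein-coding genes in the optimal list: H2B bars reach 62.5% in the optimal list and H1 has no bar in replicate 1.

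H2A and H2B genes that stand head to head shared a peak in most cases, and 7 of the summits fell between their starts. Among the members there were 12 head-to-head pairs with starts less than 1 kb apart, of which 11 joined an H2A and an H2B gene and 1 joined H2bc9 and H3c7. A single peak lay within 1 kb of both starts in 8 of the 12 pairs, against 41.3% of 745 such pairs among all protein-coding genes. In 7 of them the summit lay between the starts, which were 164 to 281 bp apart. The share of the 745 pairs with a summit between their starts was not counted, so this count has no background here. The list of replicate 1 gave a shared peak at 7 pairs (42.3% of all 745) and that of replicate 2 at 8 pairs (39.5%).

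The strongest histone peak lay between H2bc7 and H2ac7 (chr13:23574242-23574434). Its optimal signal was 217, rank 213, and its summit lay 50 bp from the H2ac7 start and 124 bp from the H2bc7 start. It ranked 324 in replicate 1 with a signal of 94.1 and 149 in replicate 2 with a signal of 121, so it led the histone peaks in both. The summits of the replicates lay 57 and 53 bp from the H2ac7 start. The peak between H2ac15 and H2bc15 had an optimal signal of 81.0 (rank 1067). It had 27.1 (rank 1844) in replicate 1 and 52.5 (rank 756) in replicate 2. The peak between H2ac6 and H2bc4 had 74.6 (rank 1181), with 14.4 (rank 5060) in replicate 1 and 60.7 (rank 593) in replicate 2. The peak between H2ac22 and H2bc22 had 57.6 (rank 1620), with 11.2 (rank 8192) and 46.7 (rank 907). The last 2 therefore stood much higher in replicate 2.

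The remaining pairs with a summit between the starts were weaker or were seen in 1 replicate. H2ac8 and H2bc8 shared a peak with an optimal signal of 53.9 (rank 1786), 20 bp from the H2ac8 start. It had 57.0 in replicate 2 (rank 662), whereas the relaxed list of replicate 1 held no peak between these starts. H2bc1 and H2ac1 encode the testis forms TH2B and TH2A. Their peak had 44.5 (rank 2312), with 13.3 (rank 5806) in replicate 1 and 27.8 (rank 1805) in replicate 2. H2bc13 and H2ac13 shared a peak of 42.0 (rank 2499), with 14.9 (rank 4792) and 24.5 (rank 2186). The rank was better in replicate 2 for all 6 of these 7 peaks that both replicates held. Over the 21 unique histone peaks found in both relaxed lists the rank was better in replicate 2 for 10, and over 3142 other promoter peaks for 49.0%.

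**Figure D2:**
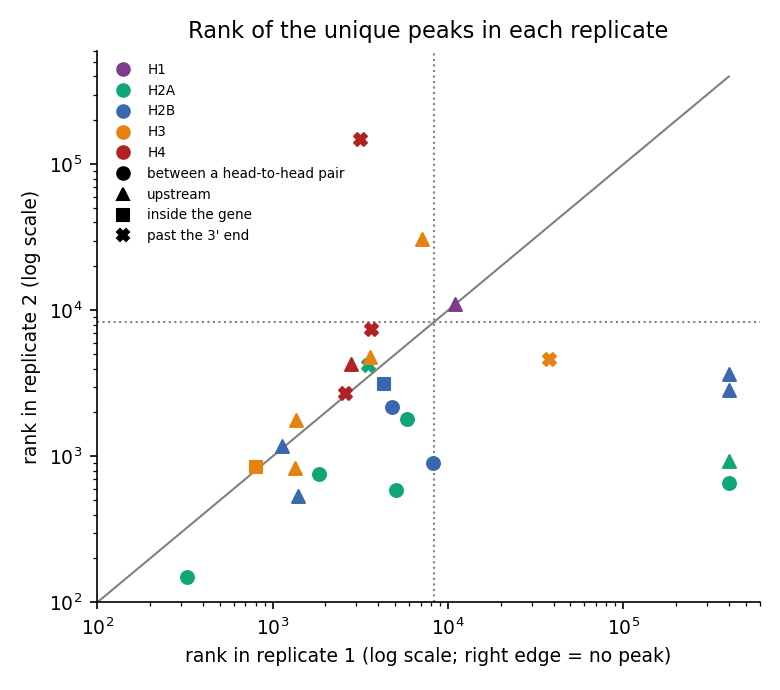
Rank of each of the 25 unique peaks by signal in the relaxed list of replicate 1 (horizontal, log scale) and replicate 2 (vertical, log scale), with class as colour and position as shape. Dotted lines mark the size of the optimal list, the diagonal marks equal rank, and 4 peaks at the right edge had no overlapping peak in replicate 1; all 7 circles (peaks between a pair) lie below the diagonal, 1 of them at that edge.

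Beside these pairs, the strongest peaks belonged to H2bc9 and H3c7, H2bc6, H3c1, H2bc14 and H3c8. The peak at H3c7 (chr13:23544321-23544426) had a signal of 103 (rank 756), with 51.3 (rank 800) in replicate 1 and 48.6 (rank 852) in replicate 2. Its summit lay 302 bp inside H3c7 and 910 bp from the start of its divergent neighbour H2bc9. The peak 107 bp before an internal start of H2bc6 (chr13:23585897-23586256) had 99.6 (rank 797), with 33.1 (rank 1397) and 64.5 (rank 537). The peak 57 bp before H3c1 (chr13:23762263-23762622) had 81.9 (rank 1054), with 34.1 (rank 1338) and 49.2 (rank 835). The peak 75 bp before H2bc14 (chr13:21721885-21721982) had 74.9 (rank 1174), with 38.8 in both replicates (ranks 1133 and 1177). The peak 172 bp before H3c8 (chr13:23535066-23535425) had 68.7 (rank 1322), with 33.8 (rank 1362) and 28.2 (rank 1769). Unlike several shared pairs, these 5 peaks ranked 1769 or better in each replicate.

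The other 13 unique peaks had optimal signals from 13.7 to 55.3. The highest of them lay 113 bp before H2ac4, with 55.3 in the optimal list and 46.1 in replicate 2 (rank 928) but no overlapping peak in replicate 1. Peaks of 27.7 and 25.5 before H2bc6, the first also 751 bp inside H1f4, were likewise found in replicate 2 alone. Both lay before the outer start of H2bc6, whose RefSeq entry spans 37455 bp, and count as upstream here. They also lay around the 3′ end of H1f4, which is 782 bp long. The summit of the second was past that end, 1287 bp from the H1f4 start. Which gene these 2 peaks belong to was not tested. H3c10 had peaks 59 bp before its start (31.7) and 500 bp past its 3′ end (24). H1f5 had one 92 bp before its start (29.2), which ranked 10916 and 11066 in the replicates, and H3c6 one 137 bp before its start (19.0). H2bc22, whose RefSeq entry spans 14079 bp, had a further one 837 bp inside the gene (33.6). Of the 25 peaks, 18 were also in the conservative list, and 17 fell among the strongest of both relaxed lists.

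The median signal of histone peaks was close to that of other promoter peaks, above it or below it by list. The median signal was 42.0 over the 25 histone peaks and 39.4 over 3213 other promoter peaks, a ratio of 1.07. Replicate 1 alone gave a ratio of 0.829 and replicate 2 alone one of 0.977. The ratio was thus above 1 in the optimal list and below 1 in both replicates. The 829 highest signals of the list included 3 of the 25 histone peaks (12%, against 10% of all optimal peaks). The upper 4141 included 18 (72.0%, against 50% of all). The shares of all optimal peaks are set by these cut-offs and include peaks outside promoters. They do not compare histone peaks with other promoter peaks, whose median of 39.4 also lies in the upper 4141, since a signal of 35.3 ranked 3202.

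Summit positions were also read by class. Summits between head-to-head starts were all at H2A and H2B genes. Apart from H2bc9 and H3c7, all head-to-head member pairs join such genes, so no H1 or H4 summit could fall there. Of the peaks nearest to an H4 start, 3 of 4 lay past the 3′ end in the optimal list and 5 of 6 in replicate 1 alone. In replicate 2 alone 2 of 6 did, with 2 upstream and 2 inside the gene. The 2 inside lay 99 bp into H4f16 (13.9) and 413 bp into H4c1 (12.2). By the nearest member start, 7 summits lay between a head-to-head pair, 11 upstream of a start, 2 inside a gene and 5 past its 3′ end. The median signal was 57.6 between pairs (42.0 to 217), 35.3 upstream (19.0 to 99.6) and 24 past the 3′ end (13.7 to 40.7), and the 2 summits inside a gene had 33.6 and 103. In replicate 2 alone the median between pairs was 52.5, against 19.2 upstream and 16.5 past the 3′ end. In replicate 1 alone the order differed, with 14.7 between pairs, 19.1 upstream and 17.4 past the 3′ end. Summits between pairs and upstream made up 72.0% of histone peaks, against 67.8% upstream at other protein-coding genes. Summits inside the gene made up 8.0% against 32.2%, where members are shorter than most genes. The 13 promoter peaks of other protein-coding genes of at most 1 kb were upstream in 84.6% and inside in 15.4%. The median distance from the start was 113 bp at members and 93 bp at other genes. No H4 member had an optimal summit within 500 bp before its start, and in the lists of the replicates the nearest upstream H4 summit lay 518 bp away. Just inside the 1 kb limit lay the peaks at H2bc9 (910 bp) and H3c10 (987 bp), and just outside it those at H1f3 (1052 bp, signal 61.4) and H1f5 (1152 bp, 88.3).

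**Figure D3:**
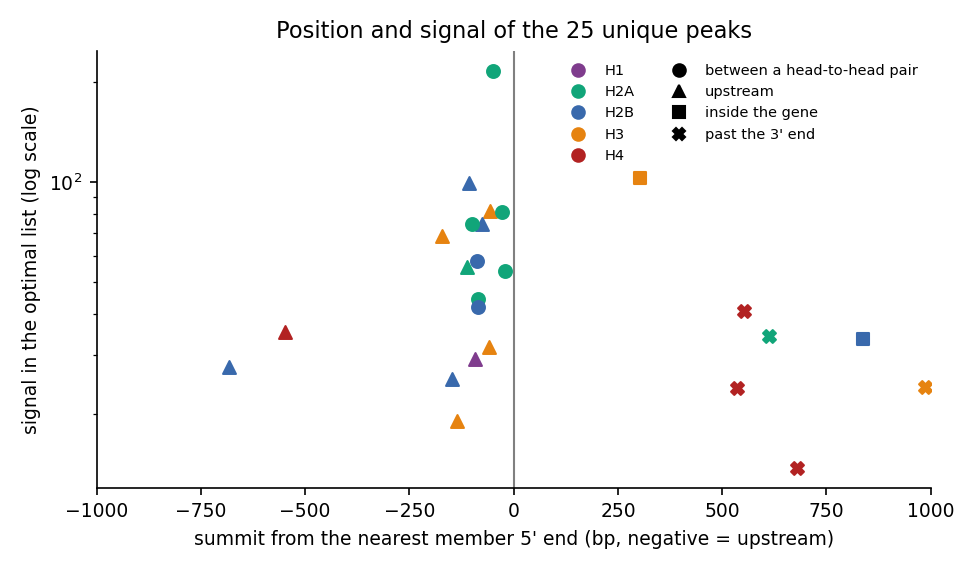
Distance of each of the 25 unique summits from the nearest member 5′ end (bp, negative is upstream) against optimal signal (log scale), with histone class as colour and position as shape. The 7 circles between H2A and H2B pairs sit within 100 bp before a start at signals of 42.0 to 217, and the crosses past a 3′ end sit 536 to 987 bp downstream at 13.7 to 40.7.

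The summits past the 3′ end were then counted by gene, for every member and every other protein-coding gene, a count added after the positions had been seen. A summit lay up to 500 bp past the 3′ end at 8 of 63 members (12.7%), against 134 of 21468 other protein-coding genes (0.624%), and over all protein-coding genes the share was 0.66%. In replicate 1 alone it was 10 members (15.9%) against 112 other genes (0.522%), with 0.567% over all. In replicate 2 alone it was 13 members (20.6%) against 159 other genes (0.741%), with 0.799% over all. Of 1483 other protein-coding genes of at most 1 kb none had such a summit in these lists. Those short genes had only 13 promoter peaks, so that they say little about genes with CHD2 nearby. The optimal peaks past a 3′ end were 360 bp wide and their genes 439 to 794 bp long, so that such a peak can also cover part of the gene.

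Such summits recurred in both replicates at 5 members, H1f5, H1f3, H4c2, H2ac22 and H3c1. At H1f5 (chr13:21779293-21779652) the summit lay 359 bp past the 3′ end, with an optimal signal of 88.3 (rank 945), 39.6 in replicate 1 (rank 1110) and 47.6 in replicate 2 (rank 883). At H1f3 (chr13:23555904-23556263) it lay 277 bp past, with 61.4 (rank 1504), 24.7 (rank 2094) and 37.5 (rank 1228). A second optimal peak of 19.5 at H1f3 overlapped the same relaxed peaks. At H4c2 the summit lay 103 bp past the 3′ end, with 40.7 (rank 2624), 21.7 (rank 2593) and 21.3 (rank 2722). H2ac22 had one 138 bp past (34.2, with 17.8 and 16.5). The peak 549 bp before H4c1 was also 87 bp past the 3′ end of H3c1 (35.3, with 20.6 and 16.3). These 5 genes had such a summit in both replicates' lists, and both H1 peaks were over 1 kb from any 5′ end.

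The other optimal summits of this kind were less even between replicates. At H4f16 on chromosome 6 the summit lay 98 bp past the 3′ end (23.9), with 19.1 in replicate 1 (rank 3166) and 3.82 in replicate 2 (rank 148149). At H4c1 it lay 226 bp past (13.7), with 17.4 and 12.2. At H3c10 it lay 500 bp past (24), with 6.82 in replicate 1 (rank 37521) and 15.5 in replicate 2 (rank 4651). No H2B member had one in the optimal list or in replicate 1, and 2 did in replicate 2. The H2B count depends on the annotated ends. The RefSeq entries of H2bc6, H2bc22, H2bc23 and H2bc21 span 37455, 14079, 3788 and 2667 bp, and that of H2bc4 also exceeds 1 kb. The other H2B entries span 432 to 522 bp. The H2bc22 summit 837 bp from the start (33.6, with 15.8 in replicate 1 and 19.4 in replicate 2) thus counts as inside. Whether H2B genes differ with shorter ends was not tested.

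**Figure D4:**
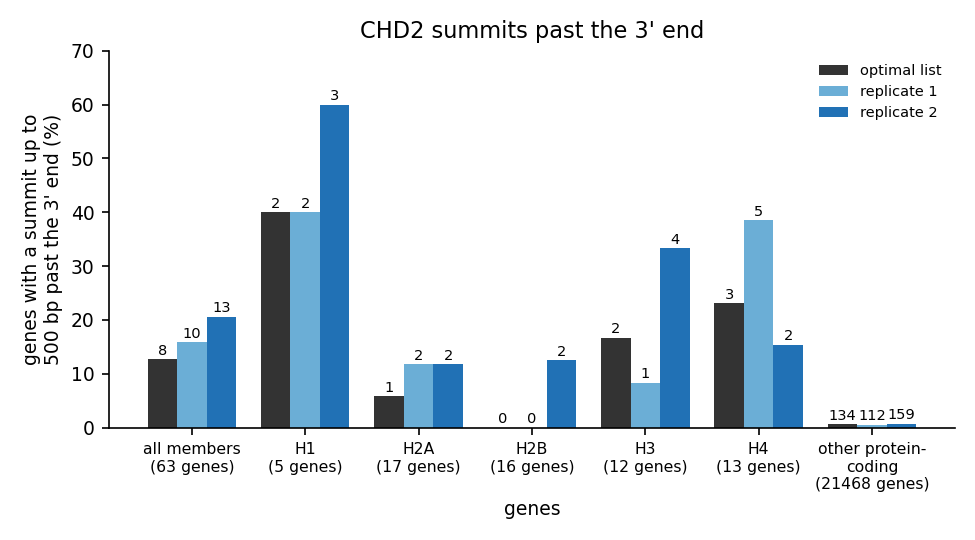
Share of genes with a CHD2 summit up to 500 bp past the 3′ end (%, vertical axis) for all 63 members, each histone class and all other protein-coding genes, in the optimal list and in each replicate's strongest peaks. Numbers over the bars count genes: 8, 10 and 13 members, against 134, 112 and 159 of 21468 other genes.

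The members fell into 6 loci, members less than 100 kb apart sharing one, and peaks were spread unevenly over them. The largest locus (chr13:23531044-23764412) held 28 members, of which 16 had a promoter peak, from 14 unique peaks. A second (chr13:21715711-21833475) held 17 members, 9 of them with a peak, from 9 unique peaks. The TH2B and TH2A pair (chr13:23933725-23934913) shared 1 peak, and H4f16 (chr6:136803993-136804431) had 1. The 10 members at chr3:96219885-96270192 and the 5 members at chr13:22035122-22043658 had no promoter peak in the optimal list. The chromosome 3 locus held 1 optimal peak outside the promoters, 943 bp past the H3c14 end with a signal of 27.7. In that locus replicate 1 alone had promoter peaks at H2ac21 (14.4, rank 5079) and H4c14 (15.6, rank 4383), and replicate 2 alone at H2bc18 (25.7, rank 2030).

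Within 10 kb of the loci lay further peaks, outside the promoters of members. A peak of 184 (rank 309, chr13:23525965-23526272) lay 255 bp from the long non-coding gene Gm11335, 4925 bp from the H4c8 start, with 94.7 in replicate 1 and 89.0 in replicate 2. It was stronger than every histone peak except that of H2bc7 and H2ac7. H2aj, an H2A variant gene beside H4f16, had a peak of 71.1 (chr6:136808007-136808366) 61 bp from the gene, with 36.7 and 30.3. A peak of 33.5 (chr13:23582771-23583130) lay 1383 bp from the H4c4 start, outside the 1 kb limit of both H4c4 and H2bc6. A peak of 23 (chr13:23772534-23772893) lay 5786 bp from Trim38.

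**Figure D5:**
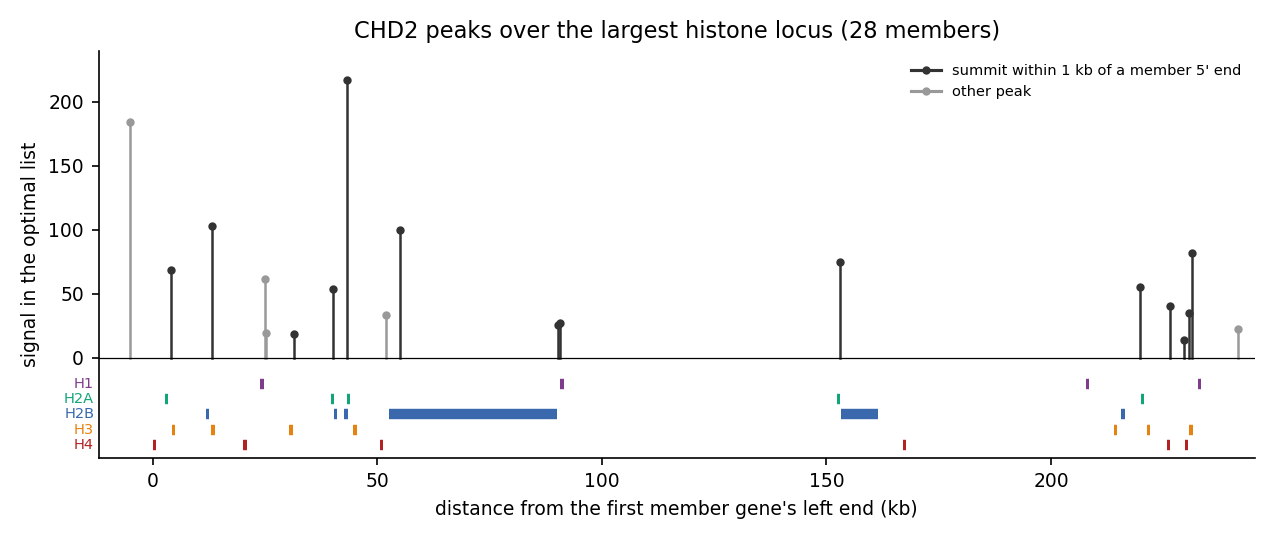
Map of the largest histone locus, with distance from the left end of its first member gene (kb, horizontal) and optimal signal (vertical); bars below the zero line are member genes by class, black stems are peaks within 1 kb of a member 5′ end and grey stems are other peaks. The tallest stem is the H2bc7 and H2ac7 peak at 217, and the grey stem left of the first gene is the peak of 184 at Gm11335.

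Of the 63 members, 35 had no promoter peak in the optimal list. They were H1f1, H1f2 and H1f3 among H1 genes and H2ac10, H2ac11, H2ac12, H2ac18, H2ac19, H2ac20, H2ac21, H2ac23 and H2ac24 among H2A genes. Among H2B genes they were H2bc3, H2bc11, H2bc12, H2bc18, H2bc21 and H2bc23. Among H3 genes they were H3c2, H3c3, H3c4, H3c11, H3c13, H3c14 and H3c15. Among H4 genes they were H4c3, H4c4, H4c6, H4c8, H4c9, H4c11, H4c12, H4c14, H4c17 and H4c18. Within 1 kb of 14 of these starts no relaxed list held any peak, although each relaxed list runs to 300000 peaks. Some of the others had a promoter peak in a replicate's list. In replicate 2 these were H1f3 (37.5), H2bc18 (25.7), H3c11 (22.6), H4c6 (17.5), H4c8 (14.4) and H1f1 (11.6). In the same replicate H3c2 and H3c4 had summits close to the start (15.5 at 64 bp and 15.6 at 63 bp upstream). In replicate 1 they were H4c14 (15.6), H2ac21 (14.4), H3c4 (13.3) and H4c3 (12.1). H3c2 and H4c3 also had a promoter peak in the conservative list.

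Some of the missing peaks lie where the DNA is repeated, and short reads from repeated words match more than 1 site. Each promoter window, from 250 bases before to 50 after a start, was cut into words of 32 bases and searched in the mm9 genome sequence. In 9 members, H2ac18, H2ac19, H2ac23, H2ac24, H2bc23, H3c14, H3c15, H4c17 and H4c18, at most 30.1% of the words occurred once, and none of these 9 had a peak in the optimal list or among the strongest of either replicate. In 6 of them no relaxed list held a peak within 1 kb, whereas H2ac18, H2ac19 and H3c15 had weak ones. Between the outer ends of H2bc23 and H2ac24 the relaxed lists held 1 peak in replicate 1, 4 in replicate 2 and 2 in the pooled list. How the authors' alignment treated such reads is not stated in the labels, and the part of repeats in these absences was not tested. In 49 members at least 71.0% of the words occurred once, and 25 of these had an optimal peak. The remaining 5 members, H2bc4, H2bc21, H3c1, H3c7 and H4c14, had no RefSeq window.

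Another 8 members had windows that are almost wholly found once and still had no peak in any relaxed list. They formed 2 runs, H2ac12, H2bc12, H4c9, H2ac11 and H2bc11 in 1 locus and H1f2, H3c3 and H2bc3 in the largest locus. At H2ac12 and H2bc12, printed above, and at H2ac11 and H2bc11, between 99.6% and 100% of the words occurred once. The run from H2ac12 to H2bc11 sat in a stretch of 16.3 to 16.9 kb without a relaxed peak in the 3 lists. Between 12.0% and 13.5% of the gaps on chromosome 13 were as long. The run from H1f2 to H2bc3 sat in one of 13.9 to 17.2 kb, as long as 11.8% to 17.8% of gaps. The median gap on this chromosome was 4.31 to 4.81 kb. The pair H2ac20 and H2bc21 had a weak relaxed peak between the starts in replicate 1 (4.49, rank 171099). Replicate 2 held one 16 bp inside H2ac20 (6.28, rank 36023). H2bc23 and H2ac23 had repeated windows.

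The promoter windows of the members held CCAAT and TATA boxes more often than those of all protein-coding genes, and octamers appeared in H2A and H2B windows only. RefSeq gave 59 windows for 58 of the 63 members. The CCAAT box was in 84.7% of them, against 38.2% of 21263 protein-coding windows. It was in every H1, H2A, H2B and H3 window and in 25% of 12 H4 windows. The TATA box was in 57.6%, against 12.6%, and the octamer in 22%, against 1.66%. The octamer was in 46.7% of H2B and 35.3% of H2A windows. The GC box was in 39.0%, against 46.2%, but in 75.0% of H4 windows. The element TCTCGCGA was in none, against 1.41%. The median GC content was 45.3%, against 56.3%.

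The shares were also read in member windows with and without a CHD2 peak, where the difference was not tested. The CCAAT box was in 92.3% of 26 windows with a peak and in 78.8% of 33 without. The octamer was in 30.8% and in 15.2%. The TATA box was in 61.5% and in 54.5%, and the GC box in 38.5% and in 39.4%. The windows without a peak include repeated ones. In the 24 without a peak whose words mostly occurred once, the CCAAT box was in 79.2% and the octamer in 20.8%. There the TATA box was in 62.5%, slightly above its share in windows with a peak, and the GC box in 33.3%. Every window without a CCAAT box was an H4 window, so the CCAAT shares also follow the number of H4 windows in each group. Between the head-to-head starts, all 6 pairs with a summit there whose DNA the windows cover, and all 4 without, held at least 2 CCAAT boxes on either strand. Neighbouring members share windows.

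Genes that act on histone genes, and histone genes outside the rule, were set beside the members. Of 16 genes for histone gene transcription, 3′ end processing and S-phase entry, 4 had a promoter peak, against 15.4% of all protein-coding genes. The list of replicate 1 held 3 of the 16, without Npat and Zfp473 but with Pou2f1, and that of replicate 2 held 4. They were Npat, the coactivator of histone gene transcription (21.8), Casp8ap2, a partner of NPAT in histone locus bodies (30.2), Zfp473, a U7 snRNP partner (24.7), and Cpsf3, the endonuclease that cuts histone pre-mRNA (60.9). The Cpsf3 peak had 29.3 in replicate 1 and 32.4 in replicate 2. Slbp, which binds the stem-loop, had none, as did Hinfp, Lsm10, Lsm11, Sympk, Cpsf2, Cstf2, Coil, Ccne1, Ccne2 and Cdk2. The Pou2f1 peak, at the gene of an octamer factor, was in replicate 1 alone.

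Of 9 histone genes outside the rule, listed here as replication-independent, 4 had a peak, with signals of 65.5 to 137. Of all protein-coding genes, 15.4% had one. Replicate 1 alone gave 5 and replicate 2 alone 4. H3f3b, which encodes H3.3, had 137 (rank 484), with 69.3 in replicate 1 and 67.8 in replicate 2. Cenpa, the centromeric H3, had 95, with 46.4 and 48.2. H2az2 had 68.2 (33.5 and 39.3), and H2ax had 65.5 (41.0 and 24.8). H1f0, H2az1, Macroh2a1 and Macroh2a2 had none, and H3f3a had one in replicate 1 alone.

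On the separate mm9 list of 4613 peaks, set against GENCODE M1, 19 of the 62 members that could be matched had a promoter peak, against 10.8% of all protein-coding genes there. That list and its annotation differ together from the mm10 data. It held no peak at H2bc7 and H2ac7, which had the strongest histone peak on mm10, nor at H2ac15 and H2bc15 or H2ac8 and H2bc8. It shared H2bc13 and H2ac13, H2ac22 and H2bc22, H2ac6 and H2bc4, and H2bc1 and H2ac1 with the optimal list.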

How the data were processed

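CHD2 was mapped by ChIP-seq in 2 biological replicates of ES-E14 cells, per the labels. Analysis began from peak lists. The optimal and conservative lists were derived, per the deposited descriptions, from the relaxed lists of each replicate and of both pooled, and the mm9 list from mm9 alignments. Caller and aligner are not stated in the labels or headers, and the control was not analysed here. The deposited signal value of each peak has no stated normalization. Summits come from the deposited summit offset.

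Summits on mm10 were compared with RefSeq genes (GRCm38.p6), with 5′ ends at the outer gene end and at the start of each RefSeq window. The strand came from those windows for 17492 genes and from GENCODE M1 by symbol or synonym for 4039, of 21900 protein-coding genes. Replicates were compared through the strongest overlapping relaxed peak. Word uniqueness was read on the mm9 genome sequence, over 211 sequences. Positions were checked on simulated peaks. No test was planned or made, since there is 1 group. All members were named, with full values for the 10 strongest unique peaks and ranges for most others, and non-members only from 2 lists or with a peak in a locus. Members and lists were chosen with earlier results of these data known. Alternatives were the other lists, windows and locus gaps. Python 3.11.15, pandas 2.3.3, numpy 2.4.6 and scipy 1.17.1 were used.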

Additional observations from a re-analysis of the deposited data

How the results depend on the processing

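Of 89 values recomputed under another setting, 71 stayed near the reported one and 18 moved. Near means within 1.5 times of a reported count or within 1 SD (0.105) of the reported ratio. That SD matches the spread of the 2 replicates' ratios, which are themselves among the values judged, so it is no independent yardstick. The number of members with a promoter peak stayed within 1.5 times of 28 under every alternative run, from 19 on the mm9 list to 35 with replicate 2 alone or a window of 2500 bp. The mm9 list gave 16 unique peaks, 4 head-to-head pairs with a shared peak, 5 H2A members and 6 H2B members. With the upper 4141 peaks per replicate, 13 members had a peak in both. For H1 the conservative list gave 1 member, windows of 500 and 2500 bp gave 1 and 4, and leaving out a replicate gave 0 to 4. For H4 leaving out either replicate gave 5 members, and a window of 500 bp gave 0. For H3 a window of 2500 bp gave 8. The ratio of median signals, 1.07 in the optimal list, fell below 1 with 1 replicate left out (0.829 to 0.977). The count of members with a summit past the 3′ end was 10 to 13 with 1 replicate left out, 5 up to 250 bp and 14 up to 1000 bp. These last 2 windows, the other settings of that count, the class windows, the outer 5′ end alone, and leaving out H4f16 or repeated windows were chosen after seeing the data. With each peak given to its nearest gene alone, no pair can share a peak, so that no value was computed. The cause of the differences between lists was not tested. No paired analysis was possible because there is 1 group and no test. Read depth limits every absence of a peak and is unknown here.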
